A study of Mus musculus with 24 samples.

Results

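The subject is how the response of cultured mouse macrophages to lipopolysaccharide (LPS) at 24 h differed from the response at 4 h. For each gene the LPS effect was the log2 ratio of LPS-treated to untreated cells of the same time, and the quantity tested was the effect at 24 h minus the effect at 4 h. The members are the protein-coding genes with enough counts to be tested, 12224 of the 21876 protein-coding genes in a table of 55357 genes.

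The cells were bone marrow-derived macrophages of wild-type (WT) C57BL/6J mice aged 8 to 12 weeks, grown from femur and tibia marrow with L929-conditioned medium as the source of M-CSF, the growth factor that drives marrow cells to become macrophages. The 4 groups compared were untreated cells at 4 h, cells given 100 ng LPS for 4 h, untreated cells at 24 h and cells given 100 ng LPS for 24 h, with 3 RNA-seq libraries in each. The volume that held this amount of LPS is not stated. The other 4 groups of the series received 100 nM dexamethasone, a synthetic glucocorticoid, with or without LPS at the same times, and served here as separate libraries in which the same difference could be measured. Nothing in the labels ties the 3 libraries of a group to separate mice or cultures, and the p-values below therefore refer to the variation among the sequenced libraries, which may be technical.

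The 12 libraries compared held 18326206 to 27908164 counts each, with 97.7 to 99.0% on protein-coding genes. Markers of macrophages summed to 18040 CPM (counts scaled to a common library total) in untreated cells at 4 h, 23380 in LPS-treated cells at 4 h, 22930 in untreated cells at 24 h and 50980 in LPS-treated cells at 24 h. Stromal and endothelial markers stood at 18.6, 168, 18.2 and 31.8 CPM in the same order, and neutrophil markers at 60.1, 150, 10.6 and 26.5. Dendritic cell markers summed to 6.90, 40.1, 9.60 and 7.33 CPM, and lymphocyte markers to 8.24, 6.79, 26.2 and 5.73. Mast cell and basophil markers summed to 3.56, 8.06, 10.9 and 1.14 CPM, and erythroid and megakaryocyte markers to 54.4, 95.2, 26.01 and 58.1. Most of the macrophage sum was Lyz2, the lysozyme gene, at 16240 and 39730 CPM without and with LPS at 24 h, whereas Cd68, a lysosomal protein, stood at 1185 and 345. The effect on the markers themselves was lower at 24 h for 6 of 8 dendritic cell, 3 of 8 macrophage, 3 of 10 tested neutrophil, 2 of 5 tested stromal and endothelial, 2 of 2 tested lymphocyte and 2 of 4 tested mast cell markers. It was higher for 4 macrophage and 3 neutrophil markers, and 1 erythroid and megakaryocyte marker had 0 counts. The part of these cells in the results was not tested, and in bulk RNA fewer cells of a type and less RNA per cell cannot be told apart. Untreated cells also differed between the times. Their level was at least 2-fold higher at 24 h for 9.17% of the tested genes and at least 2-fold lower for 8.27%, which is why only differences of effects within a time are tested below. Cells of the 2 times may differ in source and batch, which the labels do not give, and this cannot be told apart from time in any level set across them. A difference of effects removes only a shift shared by the untreated and LPS-treated cells of a time. If cells of the 2 times responded differently to LPS because of source or batch, that cannot be told apart from time in any result below.

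LPS, a component of the outer membrane of Gram-negative bacteria, is recognised by Toll-like receptor 4 with its co-receptors CD14 and MD-2. The adaptors MyD88 and TRIF pass the signal to NF-kB, MAP kinases and interferon regulatory factors, which switch on cytokines and, through secreted interferon, antiviral genes. The same signal raises inhibitors and mRNA-destroying proteins that limit it, and macrophages kept in LPS for many hours are known for shifting their metabolism toward glycolysis and for responding weakly to further LPS.

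Most of the response changed between the times. The LPS effect differed in 8372 of the 12224 genes, or 68.5%, by a quasi-likelihood test in edgeR whose p-values were adjusted by Benjamini-Hochberg across 14985 genes of all types. It was higher at 24 h in 4219 genes (34.5%) and lower in 4153 (34%), and it differed by at least 2-fold upward in 2009 (16.4%) and downward in 2183 (17.9%). This near-even split rests on TMM scaling, which centres the typical gene. With library size alone as the scale, the median difference of all genes moved from 0.02 to 0.59 on the log2 scale and the calls became 7022 higher and 2344 lower, so each change below is relative to the typical gene.

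The LPS effect itself was called in 79.5% of genes at 4 h, with 37.1% higher and 42.3% lower, and in 66.4% at 24 h, with 32.7% higher and 33.7% lower. At 4 h, LPS raised 2177 genes (17.8%) at least 2-fold and lowered 2661 (21.8%). At 24 h it raised 1223 (10%) and lowered 1768 (14.5%). The genes raised at both times numbered 823, which is 37.8% of those raised at 4 h and 67.3% of those raised at 24 h. Genes lowered at both times numbered 950, which is 35.7% of those lowered at 4 h and 53.7% of those lowered at 24 h.

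From the tests of both effects and of their difference, each gene was placed in a class, which is a description with no test of its own. A transient rise, a rise of at least 2-fold at 4 h alone with a lower effect at 24 h, took in 1072 genes with median log2 effects of 1.74 at 4 h and 0.25 at 24 h. A sustained rise held 823 genes, of which 468 had a smaller effect at 24 h, 123 a larger one and 232 a difference that was not called. Among those 232 genes, 78 had a group with 3 counts or fewer. A late rise, at 24 h alone, held 278 genes with median effects of 0.20 and 1.53. Transient falls numbered 1470, sustained falls 950 and late falls 557. A rise at 4 h followed by a fall below untreated cells at 24 h was found in 143 genes, and the opposite in 62. The remaining genes were 496 that responded at 1 time with no called difference and 6373 with no called effect of at least 2-fold at either time. The limit is sharp where the values are not. Zfp800 and Mllt6, with log2 effects of 1.00 and 1.02 at 24 h, counted as sustained rises, whereas Ppa1 and Whamm, both at 1.00 when rounded but under the limit, counted as transient.

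**Figure D1:**
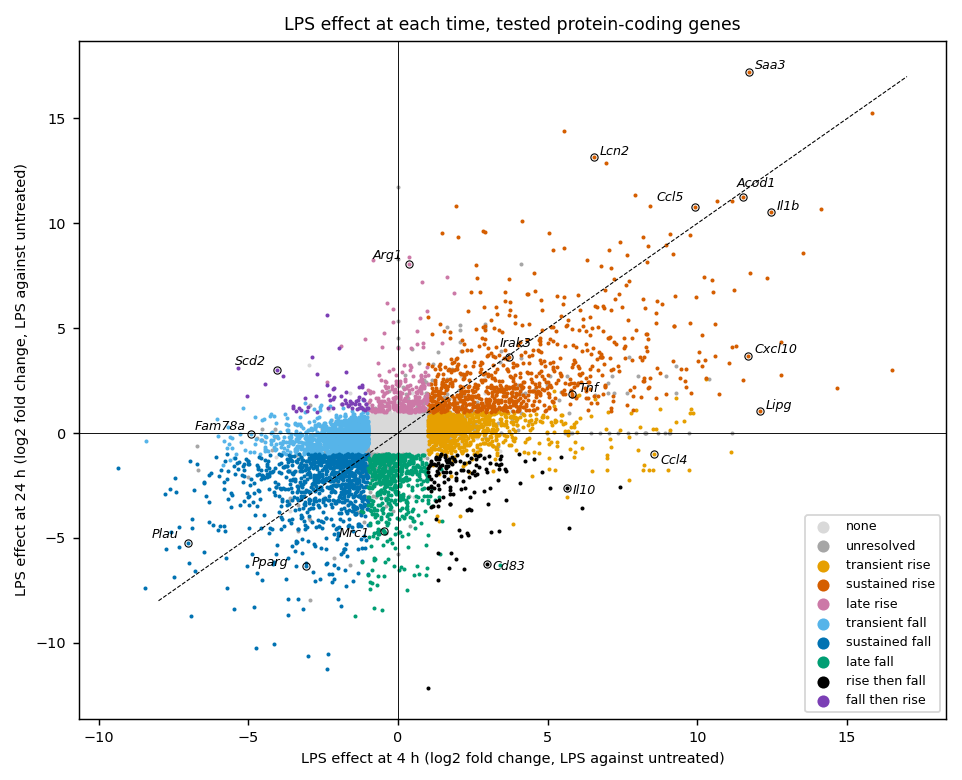
Log2 LPS effect at 4 h (horizontal) against 24 h (vertical) for the tested protein-coding genes, 1 point per gene, coloured by class. Points on the dashed line have equal effects at both times. Ccl4 and Lipg lie far to the right with a small effect at 24 h, Saa3 and Lcn2 lie above the line, Il10 and Cd83 lie in the lower right and Scd2 in the upper left. Fitted effects of the 615 genes with a group of 3 counts or fewer depend on the constant added to the counts.

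Short sequence elements in the mRNA are known to set how long cytokine messages last. Tristetraprolin, the product of Zfp36, binds AU-rich stretches of the 3' UTR (the untranslated end of the message) and speeds decay, with the nonamer TTATTTATT as its classical site. The windows below are 30 bases of the 3' UTR around such matches, 5' to 3', from GENCODE M21 transcripts (GRCm38), with matches to the nonamer in capitals. They are shown because these 4 genes include effects that shrank and 1 that grew.
Tnf: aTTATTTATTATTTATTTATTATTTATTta
Cxcl2: TTATTTATTtatctatgtatTTATTTATTt
Zfp36: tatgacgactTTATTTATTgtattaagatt
Hif1a: gcacctttTTATTTATTTATTtttggtgag
The Tnf window covers bases 437 to 466 of a 764-base 3' UTR that holds 5 overlapping nonamers. Cxcl2 has 4 nonamers, Zfp36 1 and Hif1a 2. No nonamer lies in the 3' UTRs of Il6, Il10 or Il12b, each of which has 6 copies of the shorter ATTTA, nor in those of Saa3 and Lcn2, which have no ATTTA.

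At least 1 copy was present in 7.28% of the 12081 tested genes with a 3' UTR. The share was 9.70% for sustained rises that were smaller at 24 h, 8.53% for transient rises, 7.44% for sustained rises that were larger at 24 h and 7.58% for late rises. It was 8.18% for sustained falls, 7.78% for transient falls and 5.81% for late falls. Among sustained falls that were smaller at 24 h it was 9.25%, and among sustained rises with no called difference 8.89%. Genes that fell and then rose had the highest share, 9.84%, on 6 genes with a copy. For genes that rose and then fell it was 7.69%, on 11 genes. Per 100 kb of 3' UTR there were 9.91 copies in sustained rises that were smaller at 24 h 9.74 in those with no called difference and 5.51 in those that were larger, with 6.96 in transient rises and 6.56 in all genes. These shares are descriptions, and a match in the letters does not show binding. Genes with a sustained rise had a median of 7 exons, and all tested genes a median of 9.

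Promoters are shown for 3 genes of the interferon and chemokine response whose effect shrank and for Saa3, whose effect grew. Each window runs from 250 bases before to 50 after the start in RefSeq (GRCm38.p6), 5' to 3' on the gene's strand. Capitals mark the interferon response type motif (GAAA, any 2 bases, GAAA) and the strict NF-kB type motif (GGGAA, any 3 bases, CC), searched on both strands, where matches may overlap.
Ifit1, chr19:34640639-34640938, plus strand: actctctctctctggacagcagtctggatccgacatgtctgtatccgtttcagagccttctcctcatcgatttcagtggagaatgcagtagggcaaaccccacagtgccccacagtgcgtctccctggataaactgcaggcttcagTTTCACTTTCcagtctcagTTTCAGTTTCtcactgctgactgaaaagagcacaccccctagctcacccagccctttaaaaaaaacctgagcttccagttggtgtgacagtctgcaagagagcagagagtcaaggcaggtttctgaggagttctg
Isg15, chr4:156200769-156201068, minus strand: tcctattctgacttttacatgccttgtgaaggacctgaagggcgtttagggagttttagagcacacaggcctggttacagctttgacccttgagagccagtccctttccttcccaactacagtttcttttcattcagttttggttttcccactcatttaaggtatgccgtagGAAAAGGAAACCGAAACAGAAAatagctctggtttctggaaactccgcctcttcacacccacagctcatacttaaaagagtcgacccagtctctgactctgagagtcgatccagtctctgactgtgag
Cxcl10, chr5:92348840-92349139, minus strand: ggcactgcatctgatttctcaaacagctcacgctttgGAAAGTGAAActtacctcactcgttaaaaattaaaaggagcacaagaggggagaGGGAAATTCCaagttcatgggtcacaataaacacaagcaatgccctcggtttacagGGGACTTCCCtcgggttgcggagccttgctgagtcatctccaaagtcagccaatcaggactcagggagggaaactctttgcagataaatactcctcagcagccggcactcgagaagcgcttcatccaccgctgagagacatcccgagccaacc
Saa3, chr7:46715627-46715926, minus strand: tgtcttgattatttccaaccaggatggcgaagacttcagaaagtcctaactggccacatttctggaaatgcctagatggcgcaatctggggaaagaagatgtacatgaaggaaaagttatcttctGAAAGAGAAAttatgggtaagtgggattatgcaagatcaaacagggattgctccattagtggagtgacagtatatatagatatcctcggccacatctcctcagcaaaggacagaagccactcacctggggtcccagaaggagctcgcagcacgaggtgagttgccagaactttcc
Ifit1 has 2 matches to the interferon type and Isg15 has 3. Cxcl10 has 1, with 2 of the strict NF-kB type, and Saa3 has 1 of the interferon type. Over all 12350 promoters of tested genes, 3.39% held the interferon type, 7.14% the strict NF-kB type, 66.6% the looser NF-kB type (GGG, any 5 bases, CC), 5.35% the AP-1 type TGANTCA and 3.01% the CRE type TGACGTCA. A comparison of classes is void, since a promoter was found for 79.2% of the tested genes, under the 80% set as the minimum.

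By list median, the effects on early secreted signals shrank most. Of 21 early cytokine genes tested, 16 had a lower LPS effect at 24 h and none a higher one, against 34% and 34.5% of all genes. These shares of all genes are the background for each list below. The median effect of early cytokines went from 6.90 at 4 h to 1.91 at 24 h. Tnf, the cytokine that triggers local and systemic inflammation, stood at 37.0, 33.9 and 35.9 CPM in untreated cells at 4 h and at 2050, 2112 and 1894 with LPS. At 24 h it stood at 18.4, 15.5 and 18.8 CPM without LPS and at 70.0, 61.2 and 60.8 with it. LPS-treated libraries were above untreated ones without overlap at both times, but the log2 effect fell from 5.82 to 1.87, a difference of -3.95 ± 0.11 (approximate SE, adjusted p = 1.6e-26). Il1b, which encodes interleukin 1 beta, kept far more of its rise. Its libraries ran from 0.507 to 1.59 CPM untreated and from 6236 to 7114 with LPS at 4 h, then from 2.10 to 2.19 and from 3041 to 3394 at 24 h. LPS-treated libraries were above untreated ones by ratios of pooled counts of 5640 at 4 h and 1493 at 24 h, and the difference was -1.92 ± 0.27 (adjusted p = 8.0e-07). Il12b, the p40 chain of interleukins 12 and 23, came close to the untreated level but counted as a sustained rise. It read 257 to 344 CPM under LPS at 4 h, 0.505 to 1.09 at 24 h and at most 0.362 in untreated libraries (difference -8.87 ± 0.94, adjusted p = 1.9e-09). The log2 effect at 24 h was still called at 1.85 (adjusted p = 0.0015, edgeR), on 45 counts with LPS and 14 without.

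Il6, the cytokine that drives the hepatic acute phase, shows the limit of such a test. Its untreated libraries held 3 counts in all at 4 h and 0 at 24 h. LPS gave 519, 562 and 536 CPM at 4 h and 2.20, 1.72 and 2.78 at 24 h, above every untreated library of its time. The ratio to untreated cells was 13540 at 4 h (95% interval from the counts 4634 to 65680) and at least 52.3 at 24 h, and the difference of fitted effects was not called (adjusted p = 0.93), although DESeq2 called it.

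Chemokines, the secreted proteins that recruit leukocytes, followed the same course. Of 22 tested, 16 had a lower effect at 24 h and 2 a higher one, and the median effect went from 6.36 to 1.42. Ccl4, a macrophage inflammatory protein that attracts leukocytes, went from 18.9, 12.96 and 14.2 CPM to 5939, 6399 and 5346 with LPS at 4 h. At 24 h it read 38.99, 44.8 and 33.7 CPM without LPS and 20.01, 20.05 and 19.2 with it, so the order of the groups turned over, just short of a 2-fold fall (log2 effect -0.99). The difference of -9.55 ± 0.20 (adjusted p = 2.1e-19) was among the 10 most negative of all genes with sufficient level. Cxcl10, an interferon-induced attractant of T cells, went from 2.12 to 4.15 CPM untreated to between 9138 and 10110 with LPS at 4 h, and from 6.40 to 10.1 to between 98.5 and 105 at 24 h. Both LPS groups stayed above their controls and the difference was -8.001 ± 0.24 (adjusted p = 2.4e-16). Cxcl1, a neutrophil attractant, had a difference of -2.72 (adjusted p = 0.032), which was lost without untreated 24 h replicate 2 (-2.01, adjusted p = 0.32) or replicate 3 (-2.85, adjusted p = 0.060). Cxcl2, its close relative, had -4.10 ± 0.31 (adjusted p = 6.9e-10).

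Ccl5 kept a large effect. This T cell and monocyte attractant stood at 5.09, 2.90 and 3.82 CPM untreated and 3820, 4095 and 3877 with LPS at 4 h, and at 2.72, 2.74 and 2.73 and 4883, 5086 and 4334 at 24 h. LPS-treated libraries were far above untreated ones at both times, and the effect was larger at 24 h by 0.85 ± 0.21 (adjusted p = 0.00093).

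**Figure D2:**
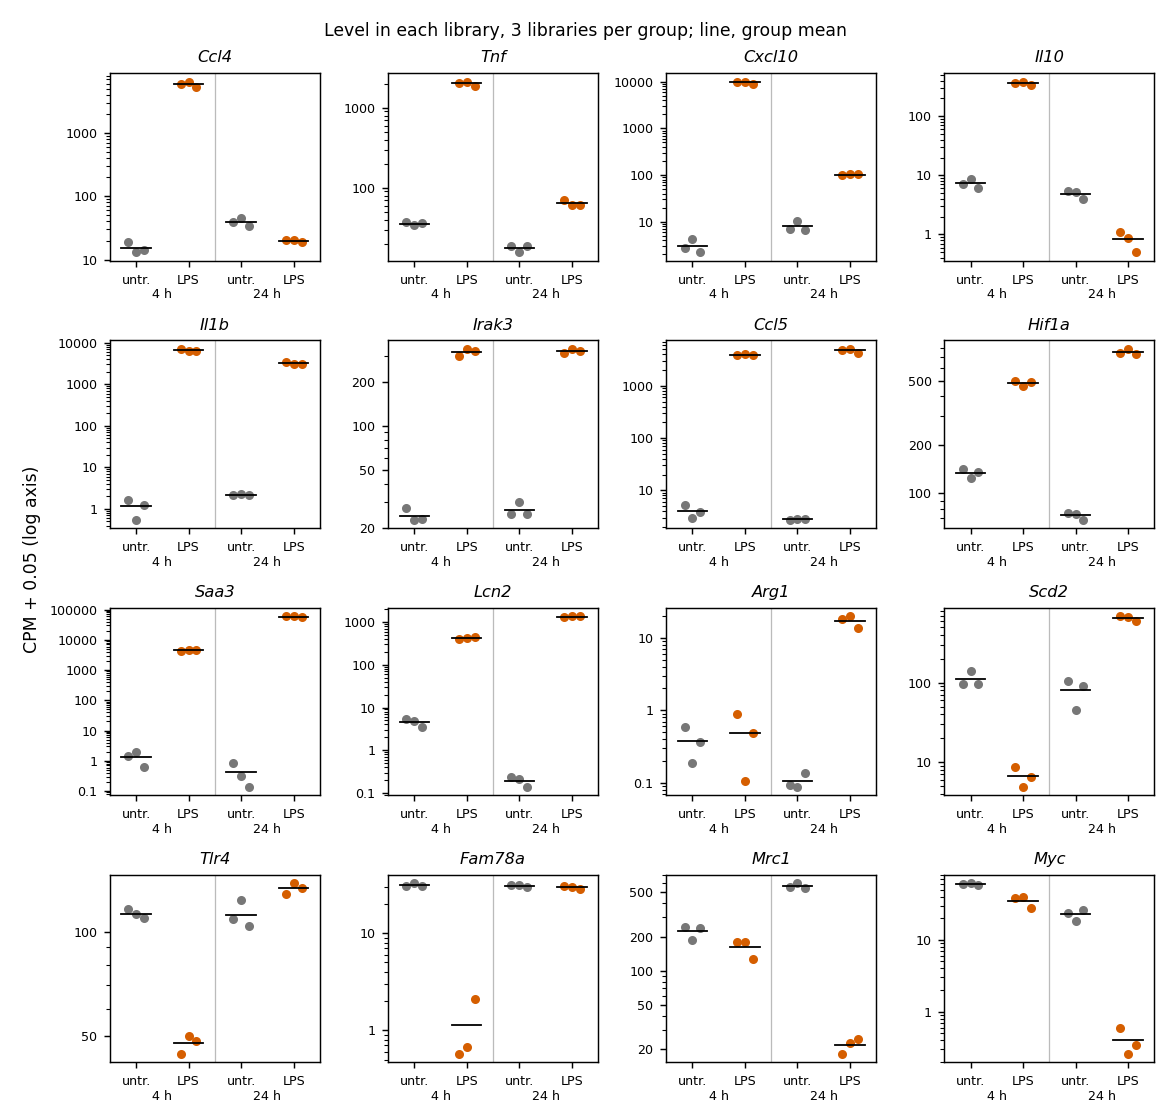
CPM plus 0.05 on a log axis in each of the 12 libraries for 16 genes, grey for untreated and orange for LPS-treated cells, with 4 h at the left of each panel and 24 h at the right and a line at the group mean. Ccl4, Tnf, Cxcl10 and Il10 are highest under LPS at 4 h, Irak3 and Ccl5 are high at both times, and Saa3 reaches 55260 to 60830 CPM at 24 h. Each panel has its own scale.

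LPS effects on NF-kB subunits, and on inhibitors that restrain the signal, mostly shrank as well. Of 19 NF-kB subunits and inhibitors, 18 had a lower effect at 24 h, and the median effect went from 3.55 to 1.15. Nfkbia, the inhibitor that holds NF-kB in the cytoplasm, went from a mean of 79.9 to 2552 CPM at 4 h and from 69.01 to 369 at 24 h (difference -2.58 ± 0.08, adjusted p = 1.4e-25). Tnfaip3, a ubiquitin-editing brake, had -4.70 ± 0.14 (adjusted p = 3.6e-19), and Nfkbiz, an atypical inhibitor protein needed for a set of secondary genes, had -4.72 ± 0.15 (adjusted p = 5.7e-18). The 1 gene of the list with no called difference was Irak3, which encodes a kinase-like protein that blocks the receptor complex. It read 27.1, 22.7 and 22.8 CPM untreated and 299, 331 and 324 with LPS at 4 h, then 25, 30 and 24.7 and 315, 334 and 323 at 24 h. LPS raised it in every library at both times and its difference was -0.10 ± 0.10 (adjusted p = 0.38), while with library size alone as the scale it was 0.47 (adjusted p = 2.5e-05).

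Among phosphatases of MAP kinases, 7 of 12 had a lower effect at 24 h and 4 a higher one. Dusp1, a nuclear phosphatase of p38 and JNK, went from 57.4 to 938 CPM at 4 h and from 30.6 to 68.6 at 24 h (difference -2.87 ± 0.10, adjusted p = 1.6e-22). Dusp6, a cytoplasmic phosphatase of ERK, did the reverse. LPS took it from 59.5, 58.2 and 62.7 CPM to 9.10, 9.93 and 11.2 at 4 h, while at 24 h the groups overlapped, with 43.1, 34.0 and 39.4 untreated and 33.4, 38.5 and 35.9 with LPS (difference 2.47 ± 0.14, adjusted p = 2.0e-16).

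Of 13 genes for decay of cytokine messages, 9 had a lower effect and 4 a higher one (7 and 5 with library size alone). Zfp36 rose from 138, 138 and 120 CPM to 2256, 2263 and 1995 at 4 h. At 24 h LPS-treated cells held 77.1, 83.9 and 68.5 CPM, below all untreated libraries at 159, 150 and 151. The effect at 24 h was -1.002 on the log2 scale, at the 2-fold limit, and the difference was -5.04 ± 0.12 (adjusted p = 3.0e-23). Its relative Zfp36l2 was lowered at both times and less so at 24 h (effects of -4.66 and -1.63).

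The receptor complex was uneven. Of 24 genes of the LPS receptor and its adaptors, 14 had a lower effect at 24 h and 5 a higher one (10 and 12 with library size alone), and their median of -0.53 became 0.04 with library size alone as the scale. Tlr4, the receptor itself, was lowered at 4 h, from 116, 112 and 110 CPM to 44.4, 50.2 and 48.4. Its libraries at 24 h stood at 109, 123 and 103 CPM untreated and 128, 138 and 133 with LPS, so the LPS libraries had moved from below to slightly above their controls (difference 1.49 ± 0.10, adjusted p = 3.3e-16). Cd14, the co-receptor, was raised at both times and less at 24 h (difference -1.53 ± 0.08, adjusted p = 1.2e-18).

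Interferon-stimulated genes stayed raised at a lower level. All 40 tested were raised at both times, 39 had a lower effect at 24 h and the median effect went from 5.67 to 2.24. Ifit1, an antiviral protein that binds foreign RNA, stood at 21.2, 15.3 and 13.1 CPM untreated and 4582, 4685 and 4257 with LPS at 4 h, then 21.8, 36.7 and 22.2 and 332, 331 and 349 at 24 h (difference -4.43 ± 0.26, adjusted p = 5.0e-11). The groups were apart at both times. Rsad2, the antiviral enzyme viperin, lost more (-7.42 ± 0.27, adjusted p = 3.5e-14) and Isg15, a ubiquitin-like modifier, less (-3.12 ± 0.18, adjusted p = 4.6e-12). The 1 interferon-stimulated gene with no called difference was Bst2, or tetherin, at 0.15 ± 0.11 (adjusted p = 0.23), named after its value was seen. In interferon and cytokine receptor signalling, 22 of 25 genes had a lower effect and 1 a higher one (20 and 4 with library size alone). Socs3, an inhibitor of JAK kinases, went from 2.66 to 3286 CPM at 4 h and from 3.39 to 592 at 24 h (difference -2.77 ± 0.23, adjusted p = 3.0e-10).

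Antigen presentation divided by class. For MHC class II and co-stimulation, 14 of 15 genes had a lower effect at 24 h and none a higher one, and the median effect turned from 1.06 to -1.47. Summed over this list, untreated cells held 3737 CPM at 4 h and 9625 at 24 h, and LPS-treated cells 9052 and 4730. The lower effects at 24 h thus hold a change of the untreated level as well. Ciita, the master activator of class II genes, went from 2.78, 4.01 and 2.90 CPM to 17.1, 17.4 and 17.9 at 4 h and from 93.7, 120 and 88.3 to 8.12, 7.71 and 8.19 at 24 h. LPS-treated libraries were thus above untreated ones at 4 h and below them at 24 h, and the difference was -6.10 ± 0.22 (adjusted p = 4.4e-21). The summed dendritic cell markers were also above untreated cells with LPS at 4 h and below them at 24 h. They stood at 5.57 to 7.84 CPM untreated and 32.0 to 44.5 with LPS at 4 h. At 24 h they stood at 9.11 to 9.85 CPM untreated and 5.87 to 8.14 with LPS. Between the untreated groups Ciita rose far more than these markers did, and their part in these values was not tested. Cd40, a co-stimulatory receptor, stayed raised (difference -6.11 ± 0.14, adjusted p = 1.6e-26). For class I and the immunoproteasome, 11 of 14 had a lower effect and 2 a higher one (10 and 4 with library size alone), and all 14 were raised at 24 h with a median of 1.12.

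Genes that rose and then fell below untreated cells included Il10, the cytokine that dampens macrophage activation. It read 7.21, 8.48 and 6.03 CPM untreated and 364, 383 and 341 with LPS at 4 h, then 5.30, 5.24 and 3.94 and 1.06, 0.833 and 0.447 at 24 h. LPS-treated libraries were above all untreated ones at 4 h and below all of them at 24 h (difference -8.26 ± 0.28, adjusted p = 9.7e-19). Cd83, a surface protein of mature dendritic cells and activated macrophages, went from 43.8 to 343 CPM at 4 h and from 144 to 1.93 at 24 h (difference -9.20 ± 0.17, adjusted p = 8.1e-25). Nox1, a catalytic subunit of NADPH oxidase, had the most negative difference of this class among genes with a mean of at least 5 CPM and more than 3 counts in each group, -9.71 ± 0.44 (adjusted p = 1.3e-20), with 75.9 to 90.7 CPM under LPS at 4 h and at most 0.138 at 24 h.

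A smaller set of genes was raised more at 24 h, with acute phase and antimicrobial proteins in front. Of 20 tested, 10 had a higher effect at 24 h and 4 a lower one. Saa3, the serum amyloid A form made by macrophages, stood at 1.37, 1.94 and 0.598 CPM untreated and 4169, 4557 and 4661 with LPS at 4 h. At 24 h it stood at 0.770, 0.274 and 0.0896 CPM untreated and 59080, 60830 and 55260 with LPS. LPS-treated libraries were far above untreated ones at both times, and the difference was 5.51 ± 0.57 (adjusted p = 1.1e-07). Lcn2, which binds bacterial iron carriers, read 398, 421 and 452 CPM with LPS at 4 h and 1307, 1390 and 1361 at 24 h. Its untreated libraries fell from between 3.41 and 5.25 CPM at 4 h to between 0.0896 and 0.181 at 24 h, so the difference of 6.602 ± 0.52 (adjusted p = 2.8e-09) holds a change of the untreated level as well. Slpi, a protease inhibitor, had 6.78 ± 0.66, and Hp, haptoglobin, 5.92 ± 0.55. Marco, a scavenger receptor for bacteria, had 5.96 ± 0.67 and rose from at most 0.626 CPM to between 447 and 490 at 24 h.

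Most glycolysis genes were raised more at 24 h. Of 19 genes, 14 had a higher effect and 3 a lower one, and the median effect went from 0.72 to 1.89. Ldha, lactate dehydrogenase A, stood at 747, 756 and 710 CPM untreated and 1336, 1330 and 1352 with LPS at 4 h, then 422, 367 and 417 and 1881, 1983 and 1882 at 24 h. LPS libraries lay above untreated ones at both times, with the widest gap at 24 h (difference 1.39 ± 0.08, adjusted p = 9.1e-18). Eno1, an enolase, had 1.63 ± 0.08 and Slc16a3, the lactate exporter, 1.65 ± 0.14. For both, untreated cells at 24 h were lower than at 4 h, with means of 331 against 849 CPM for Eno1 and 31.6 against 63.8 for Slc16a3. Summed over the list, untreated cells held 8177 CPM at 4 h and 4920 at 24 h, and LPS-treated cells 14950 and 17970. The larger effects at 24 h thus hold a change of the untreated level as well. Slc2a1, the main glucose transporter, had effects of 2.90 and 2.86 (adjusted p of the difference 0.77), although with library size alone its difference was 0.53. Pfkfb3, which makes the activator of phosphofructokinase, went the other way (-1.396 ± 0.10, adjusted p = 3.9e-14).

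The list for the hypoxia-inducible factor (HIF) held 16 genes, targets along with its subunit genes Hif1a and Epas1 and its regulator Vhl. Of these, 12 had a higher effect and 1 a lower one. Hif1a rose from 141, 124 and 136 CPM to 498, 462 and 490 at 4 h and from 75.7, 74.3 and 68.7 to 740, 787 and 728 at 24 h (difference 1.51 ± 0.09, adjusted p = 1.2e-17). The groups did not overlap at either time. Egln3, a prolyl hydroxylase that marks HIF for destruction, had 4.52 ± 0.55 (adjusted p = 1.4e-07). Ndrg1, a stress-induced gene of the same list, went against it (-5.11).

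In the citrate cycle list, 15 of 25 genes had a higher effect at 24 h and 1 a lower one, with a small median difference of 0.22. Acod1, which makes itaconate from a cycle intermediate, held its rise, with 10180 to 10400 CPM under LPS at 4 h, 3133 to 3286 at 24 h and 0.895 to 5.74 in untreated libraries. Its difference was -0.25 ± 0.49 (adjusted p = 0.68) and became -1.04 (adjusted p = 0.024) without untreated 4 h replicate 1. For the nuclear-encoded respiratory chain, 17 of 34 genes had a higher effect and 7 a lower one, or 33 and 0 with library size alone as the scale, whereas 9 of the 13 mitochondrially encoded genes had a lower effect and none a higher one, with a median of -0.58. With library size alone the latter became 2 lower and 1 higher, with a median of -0.02.

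In arginine and nitric oxide metabolism, 4 of 12 genes had a higher effect and 4 a lower one, near the 34.5% and 34% of all genes. Arg1, the arginase that competes with nitric oxide synthase for arginine, was a late rise. It read 0.531, 0.138 and 0.322 CPM untreated and 0.837, 0.0571 and 0.438 with LPS at 4 h, where the groups overlapped. Its libraries at 24 h read 0.0453, 0.0391 and 0.0896 untreated, 4 counts in all, and 18.04, 19.7 and 13.4 with LPS (difference 7.72 ± 0.88, adjusted p = 1.8e-09). Nos2, the inducible synthase, had 2 counts in untreated cells at 4 h and 0 at 24 h, with 1839 to 2012 CPM under LPS at 4 h and 193 to 293 at 24 h, and its difference was not called (adjusted p = 0.83). Gch1, which makes the synthase's cofactor, had a lower effect (-2.52 ± 0.09).

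Among other late rises, Hmox1, which degrades heme, stood at 360, 339 and 319 CPM untreated and 328, 287 and 366 with LPS at 4 h, then 225, 242 and 242 and 1835, 1574 and 1354 at 24 h. The groups overlapped at 4 h and were far apart at 24 h (difference 2.80 ± 0.12, adjusted p = 4.1e-17). Tfrc, the transferrin receptor, had 1.80 ± 0.12. Adgb, androglobin, had 6.41 ± 0.29, and Ly6a, the surface protein Sca-1, had 4.85 ± 0.54. For both, untreated cells at 24 h were lower than at 4 h, with means of 0.464 against 5.65 CPM for Adgb and 1.17 against 7.52 for Ly6a. In the iron and metallothionein list as a whole, 5 of 15 had a higher effect and 7 a lower one, beside 34.5% and 34% of all genes. With library size alone these counts were 7 and 5.

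The median effect on sterol genes turned from lowered to raised. In the list of cholesterol synthesis and the oxysterol receptor LXR, 18 of 25 genes had a higher effect at 24 h and 4 a lower one, and the median effect went from -0.40 to 0.68. Only 3 of the 25 fell and then rose by at least 2-fold. Summed over the list, untreated cells held 2119 CPM at 4 h and 1603 at 24 h, and LPS-treated cells 2243 and 2379. The larger effects at 24 h thus hold a change of the untreated level as well. Mvd, a decarboxylase of the mevalonate pathway, went from 24.3, 26.1 and 23.6 CPM to 11.7, 9.65 and 8.69 at 4 h and from 19.6, 14.8 and 18.2 to 81.0, 84.6 and 76.2 at 24 h. The groups were apart at both times in opposite order (difference 3.499 ± 0.14, adjusted p = 4.1e-21). Ch25h, which makes 25-hydroxycholesterol, a repressor of sterol synthesis, was a transient rise (-4.59 ± 0.64, adjusted p = 4.8e-06). Scd2, a desaturase that makes monounsaturated fatty acids, had the largest difference among genes that fell and then rose under the same minimum level. It read 96.5, 142 and 97.2 CPM untreated and 8.63, 4.85 and 6.44 with LPS at 4 h, then 106, 45.8 and 91.6 and 691, 678 and 602 at 24 h (difference 7.08 ± 0.43, adjusted p = 1.1e-10). Smad6, an inhibitor of BMP signalling, had 6.00 ± 0.24, although its untreated level fell from 26.8 CPM at 4 h to 0.813 at 24 h.

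Macrophage identity genes mostly lost ground at 24 h. Of 25, 15 had a lower effect and 8 a higher one, and the median effect went from 0.02 to -1.04. Mrc1, the mannose receptor, was a late fall. It read 242, 188 and 241 CPM untreated and 181, 178 and 126 with LPS at 4 h, then 551, 598 and 542 and 18.2, 22.96 and 24.9 at 24 h (difference -4.21 ± 0.29, adjusted p = 4.5e-10). Pparg, a lipid-sensing nuclear receptor of tissue macrophages, was lowered at both times and further at 24 h (effects of -3.08 and -6.33). Cd163, the haemoglobin scavenger receptor, did the opposite, with effects of -3.66 and -0.41 (difference 3.25 ± 0.19, adjusted p = 1.2e-16). Csf1r, the receptor for M-CSF, was slightly lowered at 4 h and slightly raised at 24 h, with effects of -0.22 and 0.41 (difference 0.62 ± 0.06, adjusted p = 1.5e-10). Of 12 genes of alternative activation, 10 had a lower effect and 1, Arg1, a higher one. Their summed level also changed in untreated cells, from 480 CPM at 4 h to 1309 at 24 h, beside 1523 and 394 with LPS.

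Falls had their own timing. Fam78a, a gene of poorly known function, was a transient fall, from 30.2, 32.6 and 30.4 CPM to 0.523, 0.628 and 2.06 at 4 h. At 24 h it was level, at 31.2, 31.1 and 29.6 untreated and 30.8, 29.99 and 28.1 with LPS (difference 4.86 ± 0.21, adjusted p = 3.1e-20). Lsp1, an actin-binding protein of leukocytes, was a late fall, with 254 to 288 CPM under LPS at 4 h and 1.35 to 2.88 at 24 h (difference -7.41 ± 0.18, adjusted p = 6.8e-20). Myc, a driver of growth and division, went from 60.2 to 34.9 CPM at 4 h and from 22.8 to 0.352 at 24 h (difference -5.17 ± 0.33, adjusted p = 5.0e-13). Plau, the urokinase gene, was a sustained fall, from 1288 to 9.72 CPM at 4 h and from 275 to 7.36 at 24 h (effects of -7.03 and -5.22). Hpgd, which inactivates prostaglandins, fell further at 24 h (-4.36 ± 0.34), while Ptgs2, the inducible cyclooxygenase, lost part of its rise (-3.21 ± 0.53, adjusted p = 2.4e-05) and Ptges, the synthase downstream of it, showed no called difference (-0.33 ± 0.35, adjusted p = 0.44).

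Cell cycle genes were lowered at both times. Of 34, 30 were lower with LPS at 4 h and 28 at 24 h, and the effect was lower at 24 h in 22 and higher in 7 (17 and 11 with library size alone). Ccnb2, a cyclin of mitosis, had effects of -0.37 and -4.37. Cdc6, a licensing factor for replication, went the other way, with -5.19 and -2.33. Immediate early transcription factors were mixed, with 13 of 24 lower at 24 h and 4 higher (12 and 8 with library size alone). In the unfolded protein and integrated stress list 8 of 18 had a higher effect and 5 a lower one, beside 34.5% and 34% of all genes. With library size alone these counts were 13 and 3. Of 10 heat shock genes 2 had a higher effect and 6 a lower one (5 and 3 with library size alone).

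**Figure D3:**
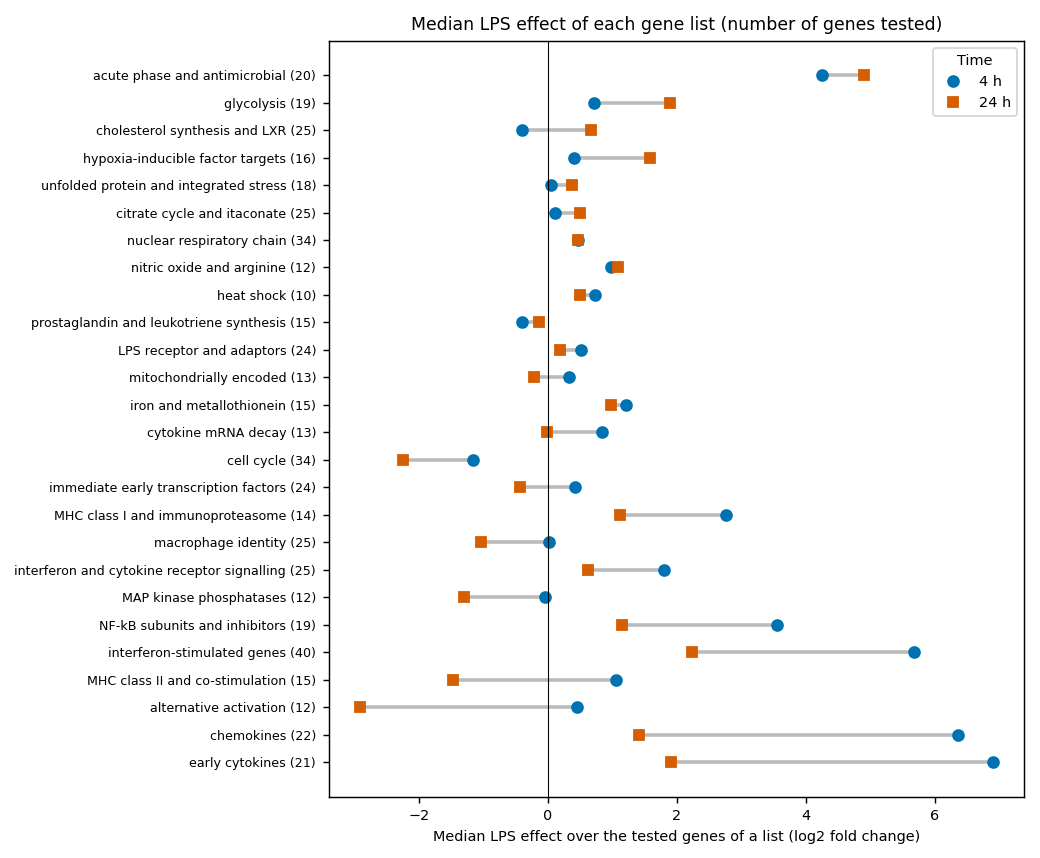
Median log2 LPS effect over the tested genes of each of the 26 gene lists at 4 h (blue circles) and 24 h (orange squares), with the number of genes in brackets, ordered by the median difference. Early cytokines and chemokines run from above 6 at 4 h to under 2 at 24 h, and glycolysis runs from 0.72 to 1.89.

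The same difference was then measured from the means of other libraries. These shared the gene filter, the joint TMM scaling and the estimate of spread with the test above. They may also share any difference in cell source or batch between the times, so the 2 measurements are not fully independent. It was the LPS effect at 24 h minus 4 h in cells given dexamethasone. It was called in 64.4% of the 12224 genes, higher in 3997 (32.7%) and lower in 3875 (31.7%), and by at least 2-fold in 15.4% and 13.2%. Of the 1072 transient rises, 892 had a lower effect at 24 h in these cells as well and 31 a higher one. Of the 1470 transient falls, 1123 had a higher effect and 19 a lower one. Rises that were smaller at 24 h kept their direction in 387 of 468 genes. Genes that rose and then fell had a lower effect in 98 of 143, and genes that fell and then rose a higher one in 44 of 62.

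Late and growing responses kept their direction less often. Of the 278 late rises, 161 (57.9%) had a higher effect and 28 (10.1%) a lower one in dexamethasone-treated cells. The shares of all genes were 32.7% and 31.7%. Of the 123 sustained rises that were larger at 24 h, 47 (38.2%) had a higher effect and 41 (33.3%) a lower one, near those shares. Of 557 late falls, 231 (41.5%) had a lower effect and 138 (24.8%) a higher one. The 249 sustained falls that were larger at 24 h more often turned than kept their direction. Of these, 62 (24.9%) had a lower effect and 125 (50.2%) a higher one. Saa3 had a difference of -1.69 in these cells and Hif1a -0.97, beside 5.51 and 1.51 without dexamethasone. Myc had 2.06 beside -5.17, and Irak3 -1.13 beside -0.10. Lcn2 had 3.04, Ccl4 -9.88 and Scd2 7.11, beside 6.602, -9.55 and 7.08. By list, 31 of 34 cell cycle genes had a higher effect at 24 h in dexamethasone-treated cells and 2 a lower one. In the HIF list 3 of 16 had a higher and 9 a lower one. Whether the differences with and without dexamethasone themselves differ was not tested.

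**Figure D4:**
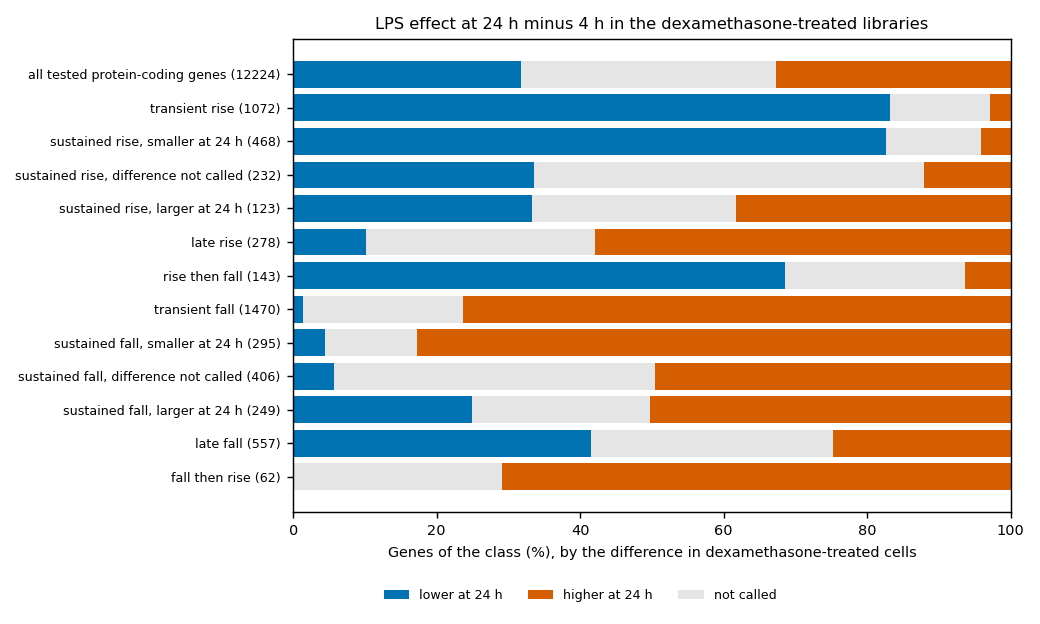
Share of each class, in percent of its genes, with a lower (blue), higher (orange) or not called (grey) LPS effect at 24 h than at 4 h in dexamethasone-treated cells, with the number of genes in brackets and all tested genes at the top. Transient rises are 83.2% blue and transient falls 76.4% orange, while sustained rises that were larger at 24 h are 33.3% blue and 38.2% orange.

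The untreated level enters the difference with a minus sign, so the following shares are partly fixed by how the genes were chosen and are descriptions. Among the 2183 genes whose effect was at least 2-fold lower at 24 h, the untreated level was at least 2-fold higher at 24 h than at 4 h in 22.8%, beside 9.17% of all genes. Among the 2009 with an effect at least 2-fold higher, the untreated level was at least 2-fold lower at 24 h in 12.3%, beside 8.27% of all genes. The standard errors above are approximate, being each log2 value divided by the root of its F statistic, and are least reliable where untreated cells held few counts.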

How the data were processed

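RNA was sequenced from 24 libraries in 8 groups of 3, and the 12 without dexamethasone were compared. The authors deposited a table of whole-number read counts per gene, made per the file headers with featureCounts 2.0.0 on GENCODE M29 exons, unstranded, so overlapping and antisense genes cannot be told apart. The submitters' processing notes name STAR and the builds GRCm38 and mm10, while GENCODE M29 annotates a later assembly, so no coordinates of the table are printed. Symbols and the protein-coding type came from GENCODE M21 by identifier, which named 52081 of the 55357 genes, and genes without a symbol held 0.204 to 0.457% of counts.

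All 24 libraries entered 1 edgeR 4.0.16 fit (R 4.3.3, limma 3.58.1) with a mean per group, TMM factors of 0.679 to 1.18 and the filterByExpr filter, leaving 14985 genes and 16 residual degrees of freedom. The common biological coefficient of variation was 6.29%. Contrasts were tested two-sided by the quasi-likelihood F test with Benjamini-Hochberg adjustment over these genes at 0.05. Levels are CPM with TMM factors, and a response needs 2-fold. Where a group had 3 counts or fewer, ratios of pooled counts with exact 95% intervals, or bounds against 3 counts, replace fitted folds. They cover counting error only. Replicates differed by more than sampling noise (chi-square per gene 3.57 to 8.37 over 12 pairs). The test was checked on simulated counts.

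Members, the 33 gene lists (7 of them cell type markers) and the tests were chosen with earlier results of these data known. Genes were named by a rule: a panel of 40, the 10 highest and 10 lowest differences with a mean of at least 5 CPM, up to 5 per class and up to 4 per list, of which 1 is not reported here. The difference in dexamethasone-treated cells, the 3' UTR nonamer counts and the split of sustained classes were added after the data had been seen. Transcripts came from GENCODE M21 and promoters from RefSeq GRCm38.p6. Alternatives were other scalings, DESeq2 1.42.0, other filters and folds, a replicate block and each library left out in turn.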

Additional observations from a re-analysis of the deposited data

Results flagged for a closer look

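The LPS effect differed between 24 h and 4 h in 8372 protein-coding genes by the test of the difference itself. Among the genes named by rule, 20 had called effects of at least 2-fold in opposite directions at the times. This count is partly fixed by the rule, which took up to 5 genes from each such class. Over all 12224 tested genes, 143 (1.17%) rose and then fell and 62 (0.507%) fell and then rose. Of the 20 named genes, 13 rose at 4 h and fell at 24 h. They were Nox1 (difference -9.71 on the log2 scale), Cd83 (-9.20), Il10 (-8.26), the vascular growth factor receptor gene Flt1 (-8.03), the chemokine gene Cx3cl1 (-7.84), the immunoglobulin superfamily gene Igsf9 (-6.82), Ciita (-6.10), Ndrg1 (-5.11), Zfp36 (-5.04), the JAK-STAT inhibitor gene Socs2 (-4.92), the dendritic cell marker Clec9a (-4.11), the neutrophil granule gene Ngp (-3.48) and the stress-induced factor gene Atf3 (-2.96). The 7 that fell and then rose were Scd2 (7.08), Smad6 (6.00), the organic anion transporter gene Slco4a1 (4.66), Napepld (4.63), which makes N-acylethanolamines, Ccdc125 (4.25), Mvd (3.5) and Fdps (3.17), a synthase of the mevalonate pathway. Clec9a, Socs2, Ngp, Cx3cl1, Flt1 and Nox1 rest on 4 to 10 counts in LPS-treated cells at 24 h. In dexamethasone-treated cells the difference had the same sign for 19 of the 20, but it was not called for Igsf9 (-0.996, adjusted p = 0.14, edgeR), Ngp (-1.11, adjusted p = 0.46) and Clec9a (-2.65, adjusted p = 0.096). The exception in sign was Socs2 (2.66, adjusted p = 2.6e-06, edgeR).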

How the results depend on the processing

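With library size alone as the scale, the difference was higher in 7022 genes, lower in 2344 and at least 2-fold higher in 3863. The effect at 4 h was higher in 2140 and lower in 8672, with 1354 and 5364 at 2-fold, and the classes became 548 transient rises, 3475 transient falls, 1552 sustained falls, 89 rises then falls and 94 falls then rises. Among named genes called with TMM or with library size alone, that scaling turned the sign of Dlst (0.40), Irak3 (0.47), Slc2a1 (0.53) and Uqcrfs1 (0.005). It also turned the median of 4 lists, LPS receptor and adaptors (0.04), heat shock (0.14), nitric oxide and arginine (0.40) and prostaglandin and leukotriene synthesis (0.14). A 1.5-fold limit gave 1238 sustained rises, 445 late rises, 1539 sustained falls, 277 rises then falls and 168 falls then rises, and a 4-fold limit gave 696 transient rises, 414 sustained rises, 135 late rises, 663 transient falls, 317 sustained falls, 29 rises then falls and 10 falls then rises. The other settings, DESeq2 among them, kept every count within 1.5 times.

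With 1 library left out, the difference was higher in 4081 to 4170 genes and lower in 3982 to 4118, and at least 2-fold in 1967 to 2028 and 2152 to 2209. Without untreated 4 h replicate 1 the difference of Ccl8 turned to -1.03 (adjusted p = 0.50, edgeR), within a range of -1.03 to 3.68 over the libraries left out. Over 169 named genes and all settings, 3498 of 3548 values kept their side of the threshold and, if called, their direction. Genes called in neither fit counted as kept even where the sign turned, as for Acod1 and Slc2a1 with 1 library left out. Of the other values, 37 lost the call, 8 gained it and 5 changed sign. The cause was not tested. Same-numbered libraries of 1 time did not vary together (correlations of -0.054 to 0.089 over 9846 genes), so the numbers are not taken as pairs. A replicate block within each time gave 4200 genes higher and 4124 lower, and a replicate block across both times 4216 and 4128. Untreated groups with few counts limit the test for genes such as Il6 and Nos2.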
